A study of Mus musculus with 20 samples.

Results

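The genes Ascl2, Id2, Id3, Tcf3, Tcf4 and Tcf12, which encode 1 tissue-restricted basic helix-loop-helix (bHLH) factor, 2 Id proteins and 3 E proteins, were followed across sorted CD4+ T cell fractions of mouse peripheral lymph node (pLN) and Peyer's patches (PP). Members were the probes annotated with one of these 6 symbols in the scanner files, which gave 9 of 39429 probes, for 6 of 30339 gene symbols. Of these, 8 were among the 22264 probes bright enough to be tested; the remaining one, a Tcf4 probe, was well above background on 1 of 20 arrays. The study compared follicular T helper (TFH) and follicular regulatory T (TFR) cells of both sites with their non-follicular counterparts, on 20 one-colour arrays in 12 groups.

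All samples came from mice of the strain B6.Cg-Foxp3<tm1Mal>, in which GFP reports Foxp3, 8 to 14 weeks old and of mixed sex, and 8 to 15 mice were pooled for each sort. The pLN groups came from mice immunised with the protein KLH in alum and comprised naive, TFH, Treg and TFR cells, with 2 arrays each at d12 and 1 array each at d25 post immunisation. In PP, TFH cells had been split by GL7 into a positive and a negative fraction. With the Treg and TFR cells this gave 4 groups, again of 2 arrays. The labels of these groups name neither an immunisation nor a day, and no naive cells of PP were among the arrays. Within B220- CD4+ cells the gates were GFP- PD1- GL7- for naive, GFP+ PD1- GL7- for Treg and GFP- PD1hi GL7+ for TFH cells (GL7- TFH cells of PP were PD1hi as well), and TFR cells were GFP+ PD1hi with GL7 either way. The fractions are therefore populations defined by a reporter and surface markers, and each array averages the animals of 1 pool.

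E proteins are broadly expressed bHLH factors. They bind E-box motifs (CANNTG) as homodimers or as heterodimers with tissue-restricted bHLH factors, and in lymphocytes they control antigen receptor rearrangement, lineage choice and the expression of genes such as Cxcr5. Id proteins carry the dimerisation domain but no DNA-binding region, so that an E protein held by an Id protein cannot bind DNA. ASCL2 pairs with E proteins; it is best known as a factor of intestinal stem cells and of the placenta, and in T cells it has been tied to the start of the TFH programme, with induction of CXCR5 and repression of CCR7 and PSGL-1 (Selplg). Id2 and Id3 are known as brakes on TFH differentiation and as factors that restrain TFR cells within the Treg pool.

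The first 30 bases of the probes on which the values below rest are printed here 5′ to 3′ in lower case, because the level of each gene was read through 1 or 2 such sequences only. The 2 Tcf12 probes are shown because their values differed in behaviour.
Ascl2, A_55_P2033725: ggccagtgtgggaaccctgctgttgcaaag
Id2, A_52_P240542: tgagtgaaccttgtggactctttaattaga
Id3, A_51_P380178: tccgcatctcccgatccagacagctgagct
Tcf12, A_52_P20048: atttacaatagcattttaagagcatagtag
Tcf12, A_55_P2433438: gtggtgtacaaaatcagtctggaagtgttg

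In the mm9 coordinates of the scanner files, the Ascl2 probe lies on the minus strand at chr7:150152734-150152793 and the Id2 probe on the minus strand at chr12:25778904-25778963. The Id3 probe lies on the plus strand at chr4:135700075-135700249, a span of 175 bases for a probe of 60 bases. The Tcf3 probes A_51_P394471 and A_55_P1975354 lie on the minus strand at chr10:79872639-79872698 and chr10:79875963-79876022, and the 2 Tcf4 probes lie on chromosome 18. Tcf12 is covered by A_52_P20048 at chr9:71692310-71692369 and by A_55_P2433438, of whose 60 bases the coordinates chr9:71692059-71692086 cover 28, both on the minus strand. For all 9 probes the annotated accession belonged to the same gene symbol in the RefSeq table, so that Tcf3 here is the E2A gene and not Tcf7l1. Whether a probe lies in a coding exon or an untranslated part was not analysed here.

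Each value is a normalised intensity on a linear scale on which the 75th percentile of every array is 1500, with a floor of 20. Levels of different probes are not compared, since probes differ in how strongly they bind. Between 43.0% and 58.0% of probes were well above background per array. The labelled fractions carried their defining markers: Foxp3 lay between 13409 and 35129 on the 10 arrays of Treg and TFR cells and between 27 and 192.3 on the other 10, and Pdcd1 lay between 27456 and 174442 on the 12 arrays of TFH and TFR cells and between 1297 and 6517 on the other 8. The arrays sat on 5 slides, namely slides 1 and 2 for replicates 1 and 2 of pLN d12, slide 3 for d25, and slides 4 and 5 for replicates 1 and 2 of PP. Slide 4 stood apart, except in its GL7- TFH array for the B cell markers. Its summed intensity of 12 B cell markers lay between 25137 and 174705, against 4892 to 25931 on the other 4 slides. The 25931 was TFH replicate 1 of pLN d12, with all 12 detected. Its summed intensity of 4 plasma cell markers was 89673, against 38862 in replicate 2. On slide 4 the summed intensity of 7 epithelial markers lay between 3525 and 8234, against 253 to 2264 on the others. For the called differences of Ascl2 that involve PP, and for most other PP differences described, values without slide 4 or within slide 5 are therefore given as well; without slide 4 each PP group has 1 array, which the fit assumes to vary like the others.

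Ascl2 had by far the widest range of the 6 genes: it was very high in TFH cells of both sites and in TFR cells of PP, low in Treg cells and in TFR cells of pLN, and not well above background in naive cells. In pLN at d12, naive cells read 58.9 and 50.1, neither well above background. Treg cells read 309 and 226.5, and TFR cells 1351 and 864.3. TFH cells read 59656 and 24716.5, so that the 4 groups followed one another without overlap.
At d25 the single arrays kept the same order, with 35.9 (not well above background) in naive, 495.2 in Treg, 2338 in TFR and 43331 in TFH cells. In PP, Treg cells read 216.5 and 168.6. All other PP arrays were at 9858.5 or more: 27675 and 16893 in GL7+ TFH, 18510.5 and 11230 in GL7- TFH, and 17635 and 9858.5 in TFR cells. The TFR arrays of PP thus lay within the range of the TFH arrays of PP apart from the lower one, whereas both d12 TFR arrays of pLN lay below every TFH array.

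**Figure D1:**
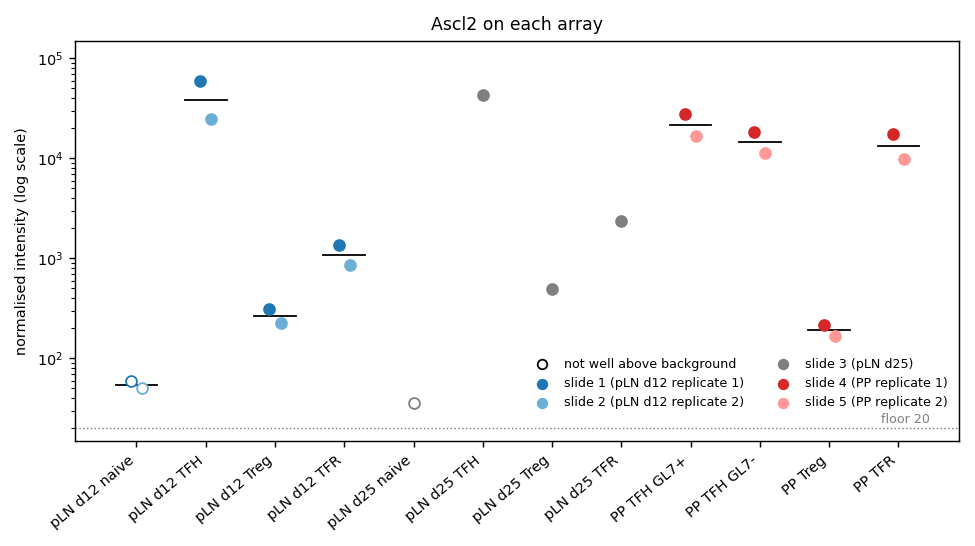
Normalised Ascl2 intensity (log axis) on each of the 20 arrays by group, with 1 point per array, horizontal bars for the mean of the log2 values of a group and open symbols for arrays not well above background. TFH arrays of both sites and TFR arrays of PP lie at 9858.5 or more, TFR arrays of pLN between 864.3 and 2338, and the 3 naive arrays at 58.9 or less.

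Ordered by their mean (± SD, n = 2), the groups ran from pLN TFH (42186 ± 24706) through GL7+ TFH (22284 ± 7624), GL7- TFH (14870 ± 5148) and TFR (13747 ± 5499) of PP to pLN TFR (1107.5 ± 344), pLN Treg (267.75 ± 58.3), PP Treg (192.55 ± 33.9) and pLN naive cells (54.5 ± 6.22). Neighbours overlapped among the first 4 of these. On the log2 scale the step from TFR cells of PP to TFR cells of pLN was the widest between neighbours. Over the 12 group means Ascl2 spanned 10.24 on the log2 scale, wider than 99.97% of tested probes, whose median span was 1.20. It was the only one of the 8 member probes that passed limma's F test among the 12 groups (adjusted p = 2.33e-06 after Benjamini-Hochberg adjustment), a test passed by 17.3% of all tested probes.

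In these and all later comparisons, a probe was called where limma gave an adjusted p (Benjamini-Hochberg) under 0.05 and the fold change was at least 1 on the log2 scale, and the other 7 tested member probes are described further below. Lack of overlap between groups of 1 or 2 arrays is a description only, and its share over all tested probes was not taken. Between naive cells of d25 and d12, for example, 5 of 8 members did not overlap and 0 were called. In pLN at d12, Ascl2 rose at least 521-fold from naive to TFH cells (log2 difference of measured means 9.46, 95% CI 8.42 to 10.51, adjusted p = 1.36e-06). It was the 1 member called of 8, where 14.7% of all tested probes were called. From naive to Treg cells it rose at least 3.59-fold (2.28, 95% CI 1.24 to 3.33, adjusted p = 0.0211; 1 of 8 members and 3.76% of tested probes called). For both bounds each naive array was set at its lowest signal well above background or, where higher, at the reading of the probe itself. The bound for TFH cells was 335-fold without TFH replicate 1, 810-fold without TFH replicate 2 and 245-fold with normexp background correction, and the difference was called in 18 of 18 alternatives. The call for Treg cells was lost in 9 of 18 alternatives, among them those that left out any 1 of its 4 arrays, and with normexp the bound was 2.22-fold (adjusted p = 0.193).

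Within the regulatory lineage of pLN, Ascl2 was 4.08-fold higher in TFR than in Treg cells (log2 difference 2.03, 95% CI 0.99 to 3.07, adjusted p = 0.0196; 1 of 8 members and 8.35% of tested probes called). This call was lost in 6 of 18 alternatives, with an adjusted p of 0.146 without TFR replicate 1, 0.0561 and 0.139 without Treg replicates 1 and 2, and 0.0531 without slide 4. It nevertheless remained 35.5-fold lower in TFR than in TFH cells of pLN (-5.15, 95% CI -6.20 to -4.11, adjusted p = 0.000165; 1 of 8 members and 5.01% of tested probes called). Here and in the TFR minus TFH comparisons below, TFH cells were GL7+ and TFR cells GL7 either way. No comparison of TFR and TFH cells matched for GL7 was made. The follicular step of the regulatory lineage (TFR minus Treg) differed from that of the helper lineage (TFH minus naive) by -7.43 on the log2 scale (95% CI -8.91 to -5.96, adjusted p = 0.000396), a value that rests on measured naive intensities below background. For this difference 1 of 8 members and 2.18% of tested probes were called.

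In PP the picture of the TFR cells was another one. Ascl2 was 69.0-fold higher in TFR than in Treg cells (log2 difference 6.11, 95% CI 5.06 to 7.15, adjusted p = 4.69e-05; 1 of 8 members and 9.25% of tested probes called). GL7+ TFH cells exceeded Treg cells 113-fold (6.82, 95% CI 5.78 to 7.87, adjusted p = 1.19e-05; 1 of 8 members and 9.87% of tested probes called). Without slide 4 both were called as well, at 5.87 (adjusted p = 0.0139) and 6.65 (adjusted p = 0.00727). Between TFR and GL7+ TFH cells of PP the arrays overlapped and the difference was not called (-0.71, 95% CI -1.76 to 0.33, adjusted p = 0.797). Here 0 of 8 members and 3.44% of tested probes were called by limma. An unadjusted p under 0.05 was found for 0 of 8 members and for 2548 of 22264 tested probes. The interval reaches down to a TFR level of 0.296 times that of TFH cells. GL7+ and GL7- TFH cells also overlapped (0.58, 95% CI -0.46 to 1.63, adjusted p = 1). In that comparison 0 of 8 members and 0.00898% of tested probes were called, and 0 members had an unadjusted p under 0.05 by limma or by the methods' t-test.

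Between the sites, Ascl2 was called in TFR cells only. Ascl2 was 12.2-fold higher in TFR cells of PP than in those of pLN at d12 (log2 difference 3.61, 95% CI 2.56 to 4.65, adjusted p = 0.00111; 1 of 8 members and 11.1% of tested probes called), and without slide 4 the difference was 3.19 (adjusted p = 0.0303). Treg cells of PP and pLN did not overlap, but their difference was small and not called (-0.47, 95% CI -1.51 to 0.57, adjusted p = 0.77). TFH cells overlapped between the sites (GL7+ in both, -0.83, 95% CI -1.87 to 0.22, adjusted p = 0.385). Without slide 4 the difference was -0.65 in Treg and -1.18 in TFH cells, so that a lower level in TFH cells of PP is not excluded. In both of these comparisons 0 of 8 members were called, against 2.24% of tested probes for Treg and 4.54% for TFH cells. At an unadjusted p under 0.05 by limma there were 0 members and 3248 of 22264 tested probes for Treg cells. For TFH cells there were 2 members, both probes of the 1 gene Tcf3, and 4365 of 22264 tested probes.

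The difference of these differences was tested as well. TFR minus Treg was larger in PP than in pLN by 4.08 (log2, 95% CI 2.60 to 5.56, adjusted p = 0.0289), where 1 of 8 members and 0.548% of tested probes were called. TFR minus TFH was larger in PP than in pLN by 4.44 (95% CI 2.96 to 5.91, adjusted p = 0.0188), where 1 of 8 members and 0.611% of tested probes were called. Both calls were lost in the fit without slide 4, with values of 3.84 (adjusted p = 0.317) and 4.37 (adjusted p = 0.193) and the 4 PP groups at 1 array each. Each slide held 1 site only, so that site and slide cannot be told apart in the comparisons of PP with pLN; the pLN mice were immunised, and the labels of the PP mice name no immunisation, so that site and immunisation cannot be told apart either.

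Differences between arrays of 1 slide leave out what the slide has in common. Within slides, Ascl2 in TFH minus naive cells was 9.98, 8.95 and 10.24 on the log2 scale on slides 1, 2 and 3, values that rest on naive readings below background and are no bounds. TFR minus Treg was 2.13, 1.93 and 2.24 on the pLN slides and 6.35 and 5.87 on the PP slides. TFR minus TFH was -5.46, -4.84 and -4.21 on the pLN slides and -0.65 and -0.78 on the PP slides, so that the values of the sites did not overlap in either difference, on slide 5 alone as well as on slide 4.
With slide as a block in the fit, the adjusted p by limma was 0.000815 and 0.000583 for the differences of 4.08 and 4.44, and 2.96e-05 for that of -7.43. By adjusted p alone, 1 of 8 members and 8.42%, then 1 of 8 and 3.83% of tested probes passed for the first 2 of these. PP TFR minus GL7+ TFH had an interval of -1.22 to -0.20 and an adjusted p of 0.0718 in that fit (0 of 8 members and 13.7% of tested probes passed), and GL7+ minus GL7- TFH one of 0.07 to 1.09 and 0.816 (0 of 8 members and 0.018% passed).

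**Figure D2:**
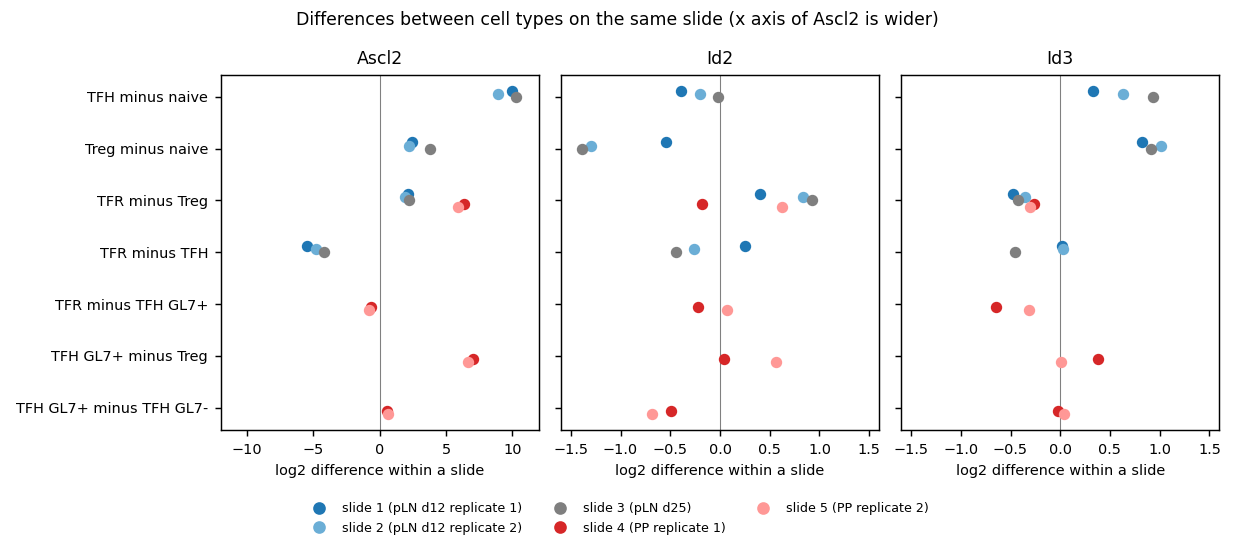
Log2 differences of 3 member probes between fractions on the same slide, with panels for Ascl2, Id2 and Id3 and 1 point per slide, pLN slides 1 to 3 and PP slides 4 and 5. Ascl2 in TFR minus Treg cells lies between 1.93 and 2.24 on the pLN slides and at 5.87 and 6.35 on the PP slides; Id2 and Id3, on a narrower axis, lie between -1.38 and 1.02 in all differences shown.

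From d12 to d25 Ascl2 differed by 0.17 in TFH (95% CI -1.10 to 1.45), 0.90 in Treg (-0.38 to 2.18) and 1.11 in TFR cells of pLN (-0.17 to 2.39), all with an adjusted p of 1 by limma, and naive cells were below background on both days. None of the 8 member probes was called in naive, TFH, Treg or TFR cells, where 0.00898%, 0.0314%, 0% and 0.00898% of tested probes were called, and 0 of 8 had an unadjusted p under 0.05 in each. Among all 22264 tested probes 258, 635, 780 and 812 had one by limma, in the same order. The fits assume that the single d25 arrays vary like the groups of 2, and day and slide cannot be told apart.

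Since ASCL2 is a factor of the intestinal stem cell, the markers of that cell are given beside the PP values. Of Lgr5, Olfm4, Smoc2 and Axin2, none was well above background on slides 1 to 3, where their summed intensity was 80 to 139.5. In PP the sum was 668.6 to 1068 on the 4 TFH arrays, most of it Smoc2 (598.9 to 989.2), and 83.5 to 103.3 on the Treg and TFR arrays. Lgr5 and Olfm4 were detected on none of the 20 arrays. The part of stem cell RNA in the Ascl2 values was not tested. Between the PP slides, Ascl2 was higher on slide 4 than on slide 5 in 4 of 4 groups (by 0.36 to 0.84 on the log2 scale), as was the epithelial marker sum (3525 to 8234 against 743 to 2264), and the part of the latter in the Ascl2 values was not tested. In bulk samples of this kind, fewer cells that express a gene and less RNA of it per cell cannot be told apart.

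Id2 and Id3 were bright in every fraction, and the largest of their differences in the 18 comparisons was 0.92 in size on the log2 scale. Id2 read 8524 and 10422 in naive, 6488 and 9063 in TFH, 5832 and 4233 in Treg, and 7731 and 7553.5 in TFR cells of pLN at d12. The d25 arrays gave 11510, 11359, 4413 and 8374 in the same order. The 3 Treg arrays of pLN were the lowest of all 20 arrays for Id2. In PP, GL7+ TFH cells read 7667.5 and 13098, GL7- TFH cells 10797 and 21053, Treg cells 7453 and 8885.5, and TFR cells 6594 and 13703. The PP groups overlapped, apart from GL7- TFH and Treg cells, and slide 4 was lower than slide 5 in 4 of 4 groups by 0.25 to 1.06 on the log2 scale.

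From naive to Treg cells of pLN, Id2 differed by -0.92 on the log2 scale (95% CI -1.85 to 0.01, adjusted p = 0.454 by limma), which was not called. With slide as a block, chosen after seeing the data with no minimum fold, it was 1.90-fold lower in Treg cells (95% CI -1.48 to -0.36, adjusted p = 0.0402), and the within-slide values were -0.55, -1.30 and -1.38. In that fit 3 of 8 members (Ascl2, Id2 and Id3) and 14.2% of tested probes passed. TFR minus Treg of pLN was 0.62 (95% CI -0.31 to 1.55, adjusted p = 0.455; 0.074 with slide as a block), and above 0 on 3 of 3 pLN slides and 1 of 2 PP slides. Treg cells of PP and pLN did not overlap for Id2 (0.71, 95% CI -0.22 to 1.64, adjusted p = 0.515; 0.84 and 0.227 without slide 4). GL7+ minus GL7- TFH cells gave -0.49 and -0.68 on the PP slides and did not pass (-0.59, 95% CI -1.52 to 0.34, adjusted p = 1).

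Id3 had the opposite order in naive and Treg cells of pLN. It read 26218 and 22628.5 in naive, 32937 and 35129 in TFH, 46378 and 45791 in Treg, and 33353.5 and 35931 in TFR cells at d12. The d25 arrays gave 28503, 54494.5, 53625 and 39878 in that order, so that naive cells were lowest on each of the 3 pLN slides. In PP the readings were 42792 and 25191 in GL7+ TFH, 43540 and 24495 in GL7- TFH, 32801 and 24990 in Treg, and 27308 and 20289 in TFR cells. These groups overlapped, with slide 4 higher than slide 5 in 4 of 4 groups by 0.39 to 0.83 on the log2 scale, opposite to Id2.

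Between naive and Treg cells of pLN the arrays of 5 of the 8 member probes did not overlap, Id3 among them. That count is a description only, since its share over all tested probes was not taken. Between naive cells of d25 and d12 it was 5 of 8 as well, with 0 called. Id3 differed by 0.92 (log2, 95% CI 0.22 to 1.62, adjusted p = 0.201 by limma) and was not called. With slide as a block it was 1.89-fold higher in Treg cells (95% CI 0.61 to 1.23, adjusted p = 0.00305), with 0.82, 1.02 and 0.91 on the 3 slides. In the same fit it was also higher in TFH than in naive cells (0.48, 95% CI 0.17 to 0.79, adjusted p = 0.0171; main fit 0.362), where 2 of 8 members (Ascl2 and Id3) and 50.7% of tested probes passed. TFR cells of pLN were lower than Treg cells in that fit (-0.41, 95% CI -0.72 to -0.10, adjusted p = 0.039; main fit 0.524). There 3 of 8 members (Ascl2, Id3 and the Tcf12 probe A_52_P20048) and 41% of tested probes passed.
TFR read below Treg for Id3 on 5 of 5 slides, by 0.26 to 0.48. The follicular step of Id3 differed between the lineages by -0.89 (95% CI -1.88 to 0.09, adjusted p = 0.643), or with slide as a block -1.33 to -0.46 and 0.0236; in the latter 2 of 8 members (Ascl2 and Id3) and 9.39% of tested probes passed. The shares of 41% and 50.7% are the background against which the Id3 and Tcf12 values of these fits stand. Id3 of Treg and TFR cells was lower in PP than in pLN on every array, without a call (-0.69, 95% CI -1.38 to 0.01, adjusted p = 0.351, and -0.56, 95% CI -1.25 to 0.14, adjusted p = 0.28); without slide 4 these were -0.88 (adjusted p = 0.0816) and -0.77 (adjusted p = 0.0458, below the minimum fold).

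**Figure D3:**
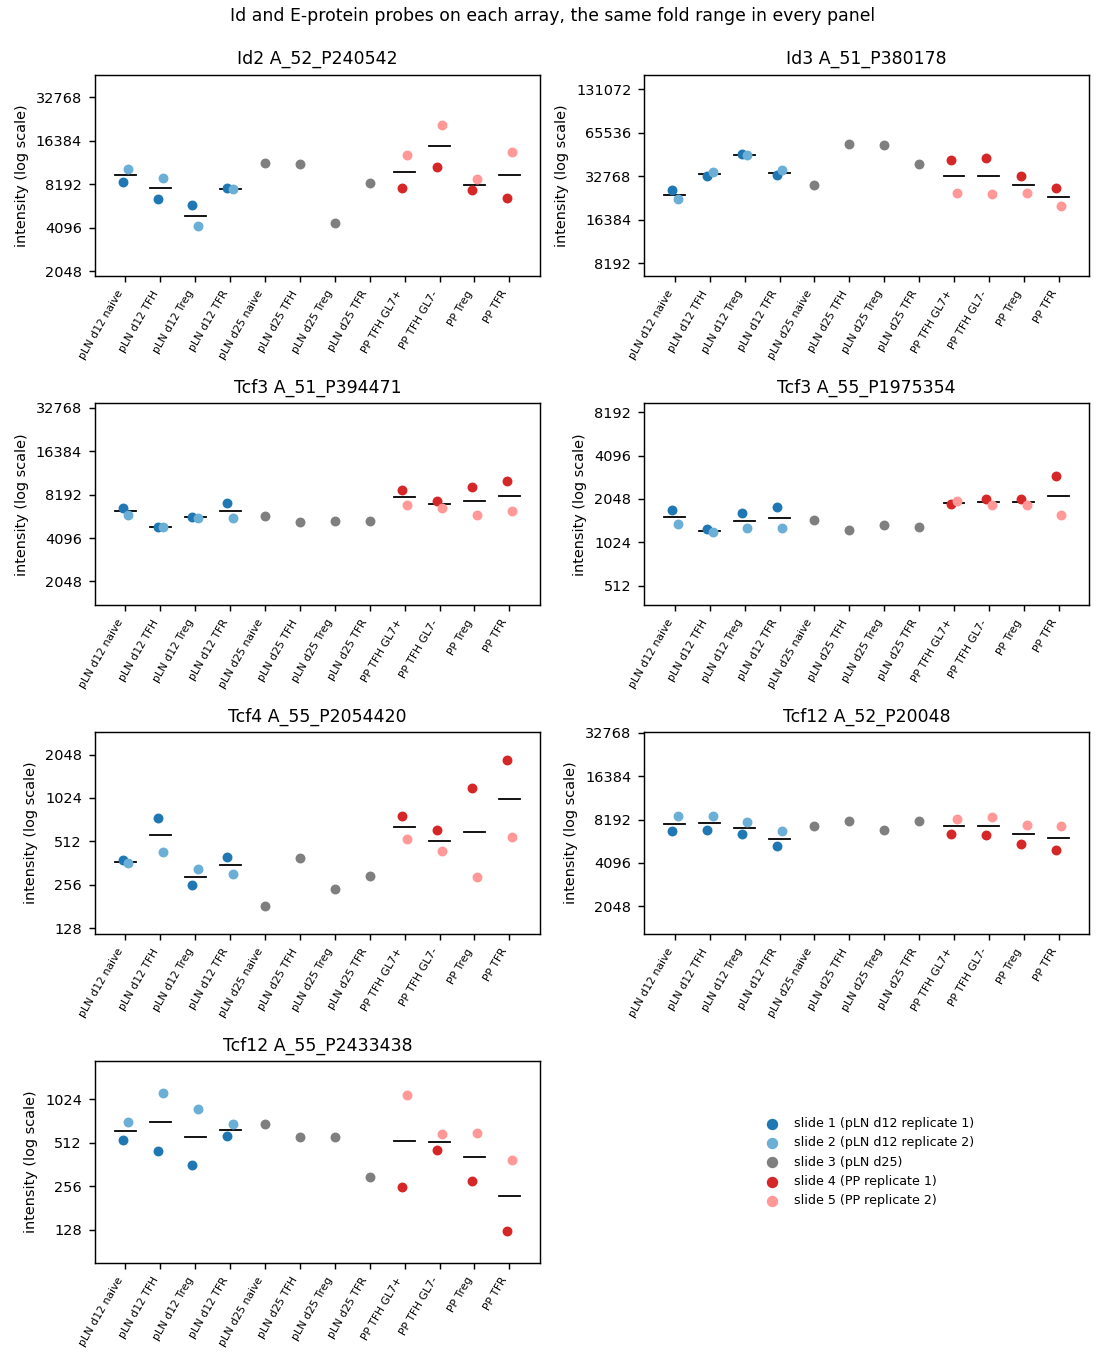
Normalised intensity (log axis) of the Id2, Id3, Tcf3, Tcf4 and Tcf12 probes on each array by group, 1 point per array, bars for the mean of the log2 values of groups of 2, and the same fold range in every panel. The pLN Treg arrays are the lowest for Id2 (4233 to 5832) and lie above the naive arrays for Id3 (45791 to 53625 against 22628.5 to 28503), and the Tcf12 probe A_52_P20048 is nearly level.

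Among the E protein genes, Tcf3, which encodes the E2A proteins E12 and E47, was measured by 2 probes that moved together (r = 0.979 over the 12 group means and 0.902 over the 20 arrays, which share slides and normalisation). A_51_P394471 read 6635 and 5961.5 in naive, 4859 and 4901 in TFH, 5690.5 and 5686.5 in Treg and 7131 and 5626 in TFR cells of pLN at d12, and 5290 to 5811 on the d25 arrays. TFH cells were the lowest group at d12 and on each of the 3 pLN slides. In PP the arrays lay between 5909 (Treg) and 10177 (TFR), with 8777 and 6984 in GL7+ TFH cells.
For both probes GL7+ TFH cells of PP lay above TFH cells of pLN without overlap (0.68, 95% CI 0.09 to 1.28, adjusted p = 0.185, and 0.65, 95% CI 0.03 to 1.27, adjusted p = 0.23), but neither was called. Without slide 4 the differences were 0.52 (adjusted p = 0.261) and 0.68 (adjusted p = 0.302). TFH minus naive of pLN was -0.37 and -0.32 (adjusted p = 0.427 and 0.526; with slide as a block 0.0647 and 0.227) and below 0 on 3 of 3 slides for both. The spans over the 12 groups were 0.72 and 0.81 on the log2 scale, under the median of tested probes.

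Tcf12, which encodes HEB, had 2 probes of unlike range. The brighter probe A_52_P20048 read 6789 and 8665 in naive, 6887 and 8702.5 in TFH, 6479.5 and 7923 in Treg, and 5330 and 6837 in TFR cells of pLN at d12. The d25 arrays lay between 6910 and 8008 and the PP arrays between 5004 and 8537. Its span over the groups was 0.41, the smallest of the 8 tested member probes and smaller than that of all but 3.77% of tested probes, whereas the other Tcf12 probe spanned 1.70. TFR minus TFH of pLN was -0.36 (95% CI -0.98 to 0.26, adjusted p = 0.691), and with slide as a block -0.55 to -0.17 (adjusted p = 0.016; 2 of 8 members, Ascl2 and Tcf12, and 23% of tested probes passed). On the d25 slide, which is the same comparison on other arrays, it was -0.01. TFR minus Treg was -0.25 (adjusted p = 0.708, or 0.0409 with slide as a block) and 0.20 on the d25 slide.
The dimmer Tcf12 probe A_55_P2433438 ranged from 124.9 in a TFR array of PP to 1138 in a TFH array of pLN, with replicates up to 4.31-fold apart. Its correlation with the other probe was r = 0.331 over the 12 group means and 0.686 over the 20 arrays. TFR cells of PP (124.9 and 388.3) lay below those of pLN (572.6 and 686.3) on this probe without a call (-1.51, 95% CI -3.26 to 0.24, adjusted p = 0.242), whereas on A_52_P20048 the same comparison gave 0.01 (95% CI -0.61 to 0.63). Without slide 4 the values of the 2 probes were -0.69 (adjusted p = 0.598) and 0.30 (adjusted p = 0.558).

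Tcf4, which encodes E2-2, the E protein needed by plasmacytoid dendritic cells and also expressed in B cells, had the second widest span of the members (2.47). Its tested probe A_55_P2054420 read 377.3 and 360 in naive, 737.5 and 429.2 in TFH, 255.6 and 331.6 in Treg and 401.5 and 304.2 in TFR cells of pLN at d12, and 182.1 to 391.3 on the d25 arrays. In PP it read 769.9 and 533.2 in GL7+ TFH, 609.6 and 438.9 in GL7- TFH, 1197 and 290.5 in Treg, and 1872 and 545 in TFR cells. The 2 highest of all arrays were the Treg and TFR arrays of slide 4, which were 4.12-fold and 3.44-fold above their counterparts on slide 5, against 1.44-fold and 1.39-fold in the TFH fractions.
TFR cells of PP lay above those of pLN for Tcf4 without overlap, by 1.53 on the log2 scale (95% CI 0.04 to 3.02, adjusted p = 0.158), not called; without slide 4 the difference was 0.64 (adjusted p = 0.338). The summed intensity of the 12 B cell markers was also highest on the Treg and TFR arrays of slide 4. On slide 4 it was 44013 in GL7+ TFH, 25137 in GL7- TFH, 116216 in Treg and 174705 in TFR cells, with all 12 markers detected on each. On slide 5 it was 14931, 6603, 15345.5 and 13464 in the same order, with 10 to 12 detected. There the Treg array had the highest marker sum of the slide but its lowest Tcf4 reading. The summed intensity of 5 plasmacytoid dendritic cell markers was 106936 to 133039 on the PP arrays and 58401 to 91642 on the pLN arrays, most of it from Siglech and Pacsin1, whose probes were detected on all 20 arrays, naive T cells included. Spib, which B cells express too, read 2861 in Treg and 4273 in TFR cells on slide 4 and 226 and 65.3 on slide 5. The part of B cell or plasmacytoid dendritic cell RNA in the Tcf4 readings was not tested. The other Tcf4 probe, A_55_P2181419, read 20 on every pLN array and between 20 and 45.5 in PP, and was well above background only in TFR replicate 1 of PP (45.5).

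**Figure D4:**
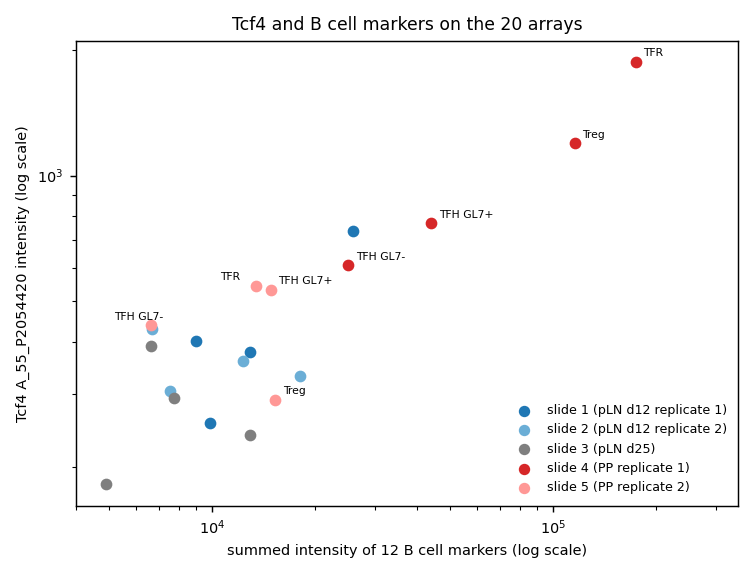
Normalised intensity of the Tcf4 probe A_55_P2054420 against the summed intensity of 12 B cell markers, 1 point per array, both axes logarithmic. The Treg and TFR arrays of slide 4 (1197 and 1872 for Tcf4, 116216 and 174705 for the markers) lie apart from the other 18 arrays.

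Taken over the 14 comparisons among the 12-day and PP groups, the 7 tested Id and E protein probes gave 98 tests by limma, of which 0 were called and 4 (4.08%) had an unadjusted p under 0.05. The 4.08% is to be read against all 22264 tested probes. Of these, between 254 (GL7+ minus GL7- TFH) and 6619 (pLN TFH minus naive) had such a p in the same comparisons. The lowest adjusted p of the 98 tests was 0.158, for Tcf4 in TFR cells between the sites. Ascl2 was called in 10 of the 18 comparisons, d25 included. The 98 tests came from the fit without slide. With slide as a block and by adjusted p alone, Id2, Id3 and the Tcf12 probe A_52_P20048 passed in comparisons within pLN, as given above. In that fit Ascl2 was the single member to pass in PP TFR minus Treg (39.1% of tested probes) and PP GL7+ TFH minus Treg (40.3%). The 95% intervals of the 18 comparisons reached from -1.85 to 2.24 on the log2 scale for Id2 and from -1.88 to 1.62 for Id3, so that the number of arrays limits what can be said of changes within them.

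**Figure D5:**
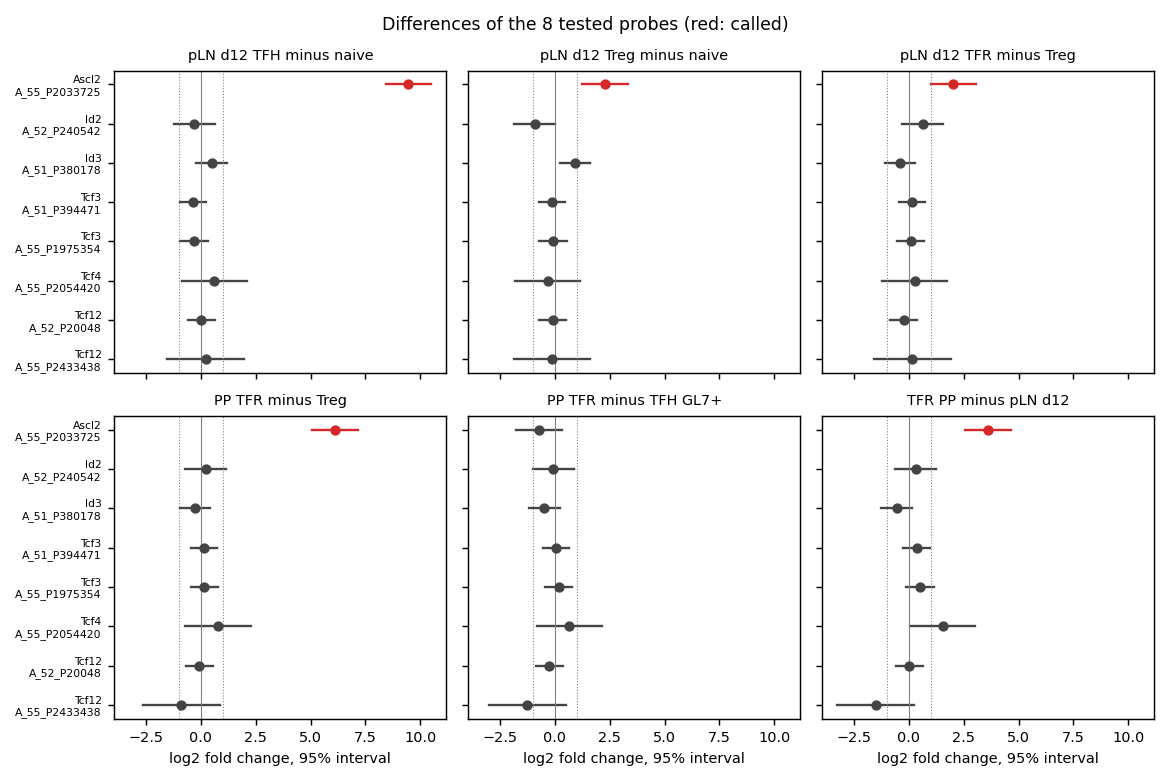
Log2 differences of the 8 tested member probes in 6 of the comparisons, with 95% confidence intervals from limma and red symbols for calls. Ascl2 is called in 5 of the 6, with values from 2.03 to 9.46, and the Id and E protein probes in 0.

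The remaining genes of the pathway were read from lists compiled with earlier results of these data known, and are given as counts. Shares of all tested probes called were 14.7% for TFH minus naive cells of pLN, 9.25% for TFR minus Treg cells of PP and 11.1% for TFR cells of PP minus pLN, and list counts are to be read against these. Without slide 4 some calls of list genes in comparisons with PP were lost, as given below. Of the 4 Id genes 3 were tested, and Id1 was the only one called. Id1 was 125.7 ± 21.9 (mean ± SD, n = 2) in naive, 1833 ± 1194 in TFH, 135.45 ± 42.2 in Treg and 79.9 ± 4.10 in TFR cells of pLN at d12, and 328 ± 26.0 in GL7+ TFH cells of PP. It rose from naive to TFH cells by 3.70 on the log2 scale (adjusted p = 9.87e-05), was lower in TFR than in TFH cells of pLN (-4.35, adjusted p = 0.000162) and lower in TFH cells of PP than of pLN (-2.31, adjusted p = 0.0099; -2.39 and 0.137 without slide 4). In TFR cells of PP it stayed at 114.75 ± 7.71, so that Id1 and Ascl2 were both high in TFH cells of pLN, while in TFR cells of PP Ascl2 was high and Id1 was not.

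Of 25 tissue-restricted bHLH genes 6 were tested. In TFH against naive cells Ascl2 rose, and Ascl3 (-3.59, adjusted p = 2.86e-05) and Nhlh1 (-1.02, adjusted p = 0.0371) fell. Ascl3 also was lower in TFR than in Treg cells of both pLN (-1.97, adjusted p = 0.0027) and PP (-1.95, adjusted p = 0.00241; -2.06 and 0.061 without slide 4), in comparisons in which Ascl2 rose. The Hes, Hey and Bhlhe genes encode bHLH repressors, several of them Notch targets, and 7 of 9 were tested. Hes5, Hey1 and Bhlhe40 rose from naive to TFH cells (3 of 7, median of the list 0.84, of all tested probes -0.09). Without Bhlhe41, described next, 3 of 6 rose (median 1.57). Bhlhe41, well above background in TFR cells of PP only (102.4 ± 45.0) and at the floor on all other arrays, entered the tested probes through these cells alone and is left out of the count there. Of the other 6, Hes5, Hey1, Heyl and Bhlhe40 rose from Treg to TFR cells of PP (median 1.69, against -0.05); without slide 4 none of the 4 was called, at 1.64 to 2.73 with adjusted p from 0.0977 to 0.257 by limma. Hey1 rose from 23.95 ± 5.59, not well above background, in naive to 889.9 ± 155 in TFH cells of pLN, and in PP from 791.8 ± 19.9 in Treg to 3103 ± 1138 in TFR cells (log2 difference 1.92, adjusted p = 0.0197).

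Of 11 tested E protein cofactors, Lmo4, a LIM-domain adaptor, and Cbfa2t3, a corepressor, rose from naive to TFH cells (1.39, adjusted p = 0.000124, and 4.50, adjusted p = 0.013). In TFR minus Treg cells of PP 0 of 11 were called. Of 12 tested genes of the signals that act on Id genes, Egr2 and Acvr1 rose (2.52, adjusted p = 4.01e-05, and 2.43, adjusted p = 0.000101) and Smad1 fell (-1.17, adjusted p = 0.0413) from naive to TFH cells. Of 6 tested genes of the Wnt pathway, which drives Ascl2 in the gut, Lef1 (-2.59, adjusted p = 5.34e-05) and Znrf3 (-3.14, adjusted p = 5.47e-05) fell in that comparison and 0 rose. In this list 1 gene entered the tested probes through GL7- TFH cells of PP alone, and without it 2 of 5 fell and 0 rose.

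The list of 10 genes regulated by ASCL2 mixes genes that it is known to raise with genes that it is known to lower. Counts and medians of this list therefore have no single expected direction and are descriptions only. Of the 10 genes, 5 rose and 2 fell from naive to TFH cells (median 1.98, against -0.09 over all tested probes). In this list 1 gene entered the tested probes through GL7- TFH cells of PP alone. Without it, 1 of 9 rose and 4 fell from Treg to TFR cells of PP (median -1.44). From naive to TFH cells, 5 of these 9 rose and 2 fell (median 2.33). Cxcr5, the chemokine receptor that leads cells into follicles, rose from 1180 ± 534 to 94069 ± 11133 (6.39, adjusted p = 1.53e-06), and Ccr7, the receptor that holds cells in the T zone, fell from 125367 ± 12992 to 10072 ± 4184 (-3.70, adjusted p = 4.76e-05). Selplg fell as well (-2.43, adjusted p = 0.000307), while Tbx21 and Ifng, genes of T helper 1 cells, rose (2.69, adjusted p = 0.00805, and 5.96, adjusted p = 6.9e-05). From Treg to TFR cells of PP 1 rose and 4 fell (median -0.80, against -0.05), and without slide 4 1 rose and 2 fell. Of those named here, Cxcr5 rose by 2.77 (adjusted p = 0.000419), and Ccr7 (-3.38, adjusted p = 0.000191), Selplg (-1.94, adjusted p = 0.00238) and Il2ra (-2.96, adjusted p = 0.00432) fell. Without slide 4 the adjusted p was 0.034 for Cxcr5, 0.0186 for Ccr7, 0.0407 for Selplg and 0.0673 for Il2ra.
TFR cells of PP had more Cxcr5 than those of pLN (80181 ± 11311 against 12904 ± 1102, log2 difference 2.63, adjusted p = 0.000907 by limma). They had less Ccr7 (8704 ± 542 against 30996 ± 4666, -1.83, adjusted p = 0.00645), Tbx21 (-3.14, adjusted p = 0.0059), Ifng (-3.85, adjusted p = 0.0025) and Il2ra (-3.01, adjusted p = 0.0044). Tbx21 and Ifng thus were lower where Ascl2 was higher, but both rose together with Ascl2 from naive to TFH cells. Whether ASCL2 acts on any of these genes was not tested, and site, slide and immunisation cannot be told apart in this comparison. Without slide 4, Cxcr5 (2.49, adjusted p = 0.0267), Ccr7 (-1.89, adjusted p = 0.0384) and Il2ra (-2.28, adjusted p = 0.0364) kept their calls, and Tbx21 (-3.41, adjusted p = 0.0748) and Ifng (-3.28, adjusted p = 0.0533) did not. For Selplg the same means were 13411 ± 1630 and 26300 ± 4821, without a call. Of 11 tested genes known as E protein targets, Cxcr5, Il10 and Gfi1 rose and Il7r and Foxo1 fell from naive to TFH cells (median 0.35), and Cxcr5 rose and, among others, Il10 and Il7r fell from Treg to TFR cells of PP (median -0.53), of which 1 rose and 0 fell by limma without slide 4. In the E protein list 1 gene entered the tested probes through GL7+ TFH cells of PP alone. Without it the medians of the other 10 genes were 0.07 from naive to TFH cells and -0.62 from Treg to TFR cells of PP. Cxcr5 stands on both the ASCL2 and the E protein list.

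The genes whose 12 group means followed those of Ascl2 most closely, among 13261 genes, were Cstb (r = 0.980), Mapre2 (0.980), Dus2 (0.977), Rab43 (0.977) and Rnf128 (0.977). Rnf128, which encodes the E3 ligase GRAIL, spanned 5.30 on the log2 scale over the groups, and Cstb 0.76. For comparison, the nearest genes to Id2 and Id3 were Zfp30 (r = 0.877) and Phf13 (0.877). Both Tcf3 probes had Cnih2 (0.955 and 0.983) and Foxj2 (0.948 and 0.974) as their nearest genes. The nearest to Tcf4 were Fscn1 (0.941), Ell3 (0.939), Trp63, Cfp and the immunoglobulin gene Ighv14-2. These are descriptions over 12 means from 5 slides with 1 common normalisation, and Ascl2 itself correlated with Id2, Id3 and the Tcf3 and Tcf12 probes at r between -0.22 and 0.30 and with the Tcf4 probe at 0.615 (0.521 over the 20 arrays).

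The promoters of the members were searched for E-boxes, since these are the letters that E protein dimers and ASCL2 bind; the sequences are those of RefSeq in GRCm38.p6. In the 250 bases before the start, Ascl2 holds 2 matches to CANNTG, a motif that reads the same on both strands, Id2 holds 1, Id3 0 and Tcf3 1, and of 3 Tcf12 starts 2 hold 1 each; Tcf4 was not searched. Among 32851 promoters of this length 66.2% hold at least 1 and 31.8% at least 2, so that neither the matches nor their number set the members apart. The Ascl2 windows lie on the minus strand at chr7:142969485-142969514, 249 bases before the start, and chr7:142969345-142969374, 98 bases before it, and the Id2 window on the minus strand at chr12:25096271-25096300, 196 bases before the start. They are shown because Ascl2 is the member that varied and Id2 holds CAGCTG, which is found in 13% of promoters. Capitals mark the E-box.
Ascl2, first: aCAGGTGtgctcctgcaatgcgtggacacc
Ascl2, second: ataggaccgcgcCAATTGtcattggccaaa
Id2: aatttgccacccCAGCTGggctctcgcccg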

How the data were processed

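Total RNA of each sorted pool (40 or 50 ng per the labels) was amplified once, labelled and hybridised by the authors to 1 one-colour Agilent array. The deposited values are scanner intensities (Agilent Feature Extraction 10.7.3.1, per the submitters' processing notes) of 39429 probes with 4 features each; the authors' matrix of normalised intensity was used as an alternative only. From the processed, background-subtracted intensity, the geometric mean over the features of a probe was taken, leaving out flagged features, those beyond 1.42 interquartile ranges and those with a pixel variation above 0.5 (13230 to 19426 features per array), followed by quantile normalisation, scaling of the 75th percentile to 1500, a floor of 20 and log2. Rebuilt and deposited values differed by a median of 0.0347 to 0.0362 (log2). Quantile normalisation sets all arrays to 1 distribution, so that a shift of total mRNA between fractions cannot be seen, and the floor narrows differences of dim probes.

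To be tested, a probe needed 3 or more of its 4 features well above background on each array of some group with 2 arrays (22264 probes). limma 3.58.1 in R 4.3.3 fitted 12 group means to 20 arrays (8 residual degrees of freedom), two-sided, with Benjamini-Hochberg adjustment over all tested probes for each comparison. Calls needed an adjusted p under 0.05 and a log2 fold change of at least 1; the F test among groups needed p under 0.001 and adjusted p under 0.005, after the methods. The script was tested on simulated data. Groups came from the labels. Replicate numbers follow accession order and were not used as pairs; arrays of 1 number at a site and day share a slide, which served as the block; the design text calls the experiments of a group independent. The number of arrays limits the precision.

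Alternatives covered background correction, normalisation, floor, filters, moderation, samples fitted, slide as a fixed or random block, RNA input, slide 4, the methods' t-test of the GL7 fractions and each array left out. Slide as a block estimates 11 of the 18 comparisons (6 residual degrees of freedom; correlation within slides 0.742); its use with no minimum fold was added after seeing the data. The members and lists were chosen with earlier results of these data known. Genes named beyond the members are, per list and comparison, called genes with the largest change, the 5 genes most alike in pattern, and markers. Of all probes, 27597 were named through the RefSeq table, 2058 of them with another symbol than in the scanner files. Apart from RefSeq promoter sequences, no genome sequence was used here. The value of 1 listed gene is not reported here.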

Additional observations from a re-analysis of the deposited data

Results flagged for a closer look

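Of the values above, 5 were looked at again. The first is the difference between the sites in the follicular step of regulatory cells for Ascl2, where TFR minus Treg was 4.08 (log2) larger in PP than in pLN by the test of the difference itself, and the second the corresponding difference of TFR minus TFH, 4.44. The third is the difference between the helper and the regulatory step of pLN for Ascl2, -7.43, which rests on naive arrays below background. Id3 showed a difference of the same kind, -0.89, which passed only with slide as a block and no minimum fold. The Tcf4 probe A_55_P2181419, which entered no comparison, read 45.5 in TFR replicate 1 of PP, where it was well above background, and at most 45.2 on the other arrays.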

How the results depend on the processing

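The 19 counts of member probes gave 343 values under alternatives, of which 300 stayed within 1.5 times the count reported, and none of the called differences of single probes changed direction (0 of 190 values, 37 of which lost the call). Values that were not called carry no direction; their sign turned in 150 of 2286. Ascl2 was called under all alternatives run in pLN TFH minus naive, PP GL7+ TFH minus Treg, TFR PP minus pLN and the lineage difference. Of the other Ascl2 calls, the count of member probes fell from 1 to 0 as follows, each time with Ascl2 in the same direction. With only the groups compared in the fit it was 0 for PP TFR minus Treg, pLN TFR minus TFH, pLN TFR minus Treg, pLN Treg minus naive and both differences between the sites. With no filter, and without slide 4, it was 0 for pLN TFR minus Treg, pLN Treg minus naive and both differences between the sites. With no moderation it was 0 for pLN Treg minus naive and both differences between the sites. With normexp it was 0 for pLN Treg minus naive, where Ascl2 was at 1.31 (log2, adjusted p = 0.193 by limma, range 7.88e-05 to 0.193 over its alternatives).

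Leaving out 1 array at a time gave counts from 0 to 1 for pLN TFR minus Treg (0 without Treg replicate 1, Treg replicate 2 or TFR replicate 1), and 0 throughout for pLN Treg minus naive (each naive and Treg array). For the difference between the sites of TFR minus TFH they were 0 to 1 (0 without replicate 1 of pLN TFH, either pLN TFR array, PP TFR replicate 1 or PP GL7+ TFH replicate 2). For that of TFR minus Treg they were also 0 to 1, with 1 only where PP TFR replicate 2 was left out. Ascl2 then lay between 2.06 and 2.51 in Treg minus naive and between 1.71 and 2.35 in TFR minus Treg of pLN. In all of these the lone array is assumed to vary like the other groups. The cause of these changes was not tested, beyond the fewer arrays of the smaller fits.

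With RNA input as a covariate the count for TFR PP minus pLN was 3 (Ascl2, Tcf4 A_55_P2054420 and Tcf12 A_55_P2433438), where 15.9% of all tested probes were called. With slide as a fixed block and no minimum fold, chosen after seeing the data, it was 3 for pLN Treg minus naive, 3 for pLN TFR minus Treg, and 2 each for pLN TFH minus naive, pLN TFR minus TFH and the lineage difference. By the methods' t-test of the GL7 fractions 526 of 22264 probes had p under 0.05, and 1 after Benjamini-Hochberg. Probes near background limit the precision most: the lowest intensity well above background was 20 to 144 per array.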
